A study of Mus musculus with 12 samples.

Results

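Gas5, Snhg1, Snhg3, Snhg5, Snhg6, Snhg8, Snhg12 and Snhg20 are 8 genes whose long transcripts are known mainly as carriers of small nucleolar RNAs (snoRNAs). They were chosen by symbol, not by a rule on measured values, but with earlier results of these data known. They are 8 of the 54446 genes in the RNA-seq tables. The data are 1 RNA-seq library each of mouse embryonic stem cells (mESCs) of the E14TG2a line and of NIH3T3 cells, an established mouse fibroblast line, and 7 ChIP-seq peak lists. In mESCs the lists are for GFP-tagged Ctr9, the histone mark H3K27ac, GFP-tagged NELFA and RNA polymerase II (RNAPII) phosphorylated at Ser5 (Ser5p) or Ser2 (Ser2p) of its tail, and in NIH3T3 cells for GFP-tagged Ctr9 and H3K27ac. Both lines were kept in the same medium with LIF. Ctr9, a core subunit of the Paf1 complex that travels with elongating RNAPII, carried GFP at its C terminus after a CRISPR/Cas9 knock-in in either line, and cells were collected by sorting for GFP. NELFA, a subunit of a complex that holds RNAPII paused near the start of genes, carried a localization and affinity purification tag with GFP in mESCs. Per the paper, Ser5p was also measured in the NELFA-tagged mESCs. The labels do not say whether the cells used for RNA carried a tag. Each library was made once, so no value below has a replicate, no test between the cell types was possible, and intervals cover counting error only.

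Box C/D snoRNAs guide the methylation of ribosomal RNA, and box H/ACA snoRNAs guide the conversion of its uridines to pseudouridine. In mammals most of them lie in introns and are trimmed out of the spliced host transcript, which for these genes codes for no known protein. Spliced host RNAs of this kind are known to be short-lived and, in many cases, to be removed by nonsense-mediated decay. Many host genes begin with a run of pyrimidines, the start known from genes of the translation machinery.

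The GENCODE annotation of mm10 placed 30 snoRNA or small Cajal body RNA (scaRNA) entries at 28 places inside the 8 genes, all on the strand of the host. Gas5 held 9 of these places, Snhg1 8, Snhg12 4, Snhg3 and Snhg5 2 each, and Snhg6, Snhg8 and Snhg20 1 each. A box C/D pattern was looked for as ATGATGA or GTGATGA within 25 bases of the 5′ end together with CTGA within 20 bases of the 3′ end, and an H/ACA pattern as ACA with 2 to 4 bases after it at the 3′ end of an RNA over 110 bases long, on the RNA strand only. The first was found at 16 places, the second at 6 and neither at 6. Places with the C/D pattern lay in Gas5, Snhg1, Snhg5, Snhg6 and Snhg12, and those with the H/ACA pattern in Snhg3, Snhg8, Snhg12 and Snhg20. At 27 places the small RNA lay in an intron of the transcript with the highest level in mESCs. The exception was the scaRNA Gm26083 in Snhg20, which overlapped an exon of Snhg20-201, the highest transcript in mESCs, and no exon of Snhg20-202, the highest in NIH3T3 cells. Against the highest transcripts in NIH3T3 cells the exceptions were all in Snhg1. The SNORD28 entry Gm24453 overlapped an exon of Snhg1-206. The entries of SNORD25, SNORD26 and SNORD27 lay before the start of Snhg1-206, and so in none of its introns.

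The following sequences show at least 1 small RNA from each host, as in GENCODE M21 (mm10, 5′ to 3′), with the letters of the patterns above in capitals. They are what the host transcripts carry, and the pairs from Snhg5 and Snhg3 are near copies of each other.
SNORD44 (Gm23212), in Gas5, chr1:161036682-161036741, plus strand: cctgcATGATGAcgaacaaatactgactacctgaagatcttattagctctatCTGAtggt
Snord47, in Gas5, chr1:161038082-161038158, plus strand: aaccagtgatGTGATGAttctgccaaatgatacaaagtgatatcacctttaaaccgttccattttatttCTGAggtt
SNORD25 (Gm25855), in Snhg1, chr19:8723993-8724064, plus strand: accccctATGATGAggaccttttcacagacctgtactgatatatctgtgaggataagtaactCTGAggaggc
Snord50a, in Snhg5, chr9:88521529-88521600, minus strand: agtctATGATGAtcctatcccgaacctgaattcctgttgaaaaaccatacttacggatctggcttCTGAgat
Snord50b, in Snhg5, chr9:88521797-88521868, minus strand: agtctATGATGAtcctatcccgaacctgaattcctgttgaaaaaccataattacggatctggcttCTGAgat
Snord87, in Snhg6, chr1:9942463-9942549, minus strand: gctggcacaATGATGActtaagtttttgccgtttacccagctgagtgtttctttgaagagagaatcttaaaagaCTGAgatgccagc
Snora24, in Snhg8, chr3:123507937-123508066, minus strand: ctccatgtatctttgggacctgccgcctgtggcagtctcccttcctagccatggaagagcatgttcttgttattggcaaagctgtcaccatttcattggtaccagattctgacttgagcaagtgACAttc
Snora73a, in Snhg3, chr4:132352775-132352979, minus strand: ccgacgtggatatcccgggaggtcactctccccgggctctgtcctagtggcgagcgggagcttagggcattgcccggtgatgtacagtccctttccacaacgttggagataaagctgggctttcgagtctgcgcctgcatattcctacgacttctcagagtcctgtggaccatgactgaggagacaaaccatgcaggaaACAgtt
Snora16a, in Snhg12, chr4:132309464-132309600, plus strand: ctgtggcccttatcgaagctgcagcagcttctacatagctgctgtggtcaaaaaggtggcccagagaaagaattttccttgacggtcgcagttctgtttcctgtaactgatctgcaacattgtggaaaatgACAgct
Gm26083, in Snhg20, chr11:117077243-117077435, plus strand: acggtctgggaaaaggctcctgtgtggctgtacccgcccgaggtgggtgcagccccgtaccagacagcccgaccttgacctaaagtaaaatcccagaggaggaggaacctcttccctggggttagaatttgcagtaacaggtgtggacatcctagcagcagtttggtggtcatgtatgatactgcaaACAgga

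Snord50a and Snord50b, both in Snhg5, had 72 bases each and differed at 1 of them, C50A, counted from 1 at the 5′ end with the base of Snord50a first. Snora73b and Snora73a, both in Snhg3, had 205 bases each and differed at 7, an identity of 96.6%. Reads from such copies cannot be assigned with certainty. In the RNA-seq tables the small RNAs themselves were almost absent. Of the 30 entries, 29 were listed at 0 in each library. Snora73b had 1 estimated count in mESCs and Snora73a 2 in NIH3T3 cells. The same held for snoRNA genes in general, of which 1496 of 1507 were listed at 0 in mESCs and 1497 in NIH3T3 cells. The levels that follow are therefore those of the host transcripts, and nothing in these tables measures the snoRNAs.

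Host transcripts ranged from among the most abundant RNAs of the cell to a modest level. Levels are given in TPM, which corrects the counts of a transcript for its length and for the size of the library, and a gene takes the TPM of its highest transcript. In mESCs the order was Gas5 with 178 TPM, Snhg5 with 76.3, Snhg1 with 67.1, Snhg3 with 63.1, Snhg8 with 60.3, Snhg6 with 51.7, Snhg12 with 38.3 and Snhg20 with 12.7. In NIH3T3 cells it was Gas5 with 932 TPM, Snhg8 with 249, Snhg1 with 143, Snhg5 with 66.6, Snhg6 with 55.1, Snhg3 with 29.4, Snhg12 with 22.0 and Snhg20 with 13.5. Gas5 was the highest and Snhg20 the lowest member in both cell types, and Snhg8 moved from the fifth place to the second. Without replicates, it cannot be said which neighbours in these orders differ beyond the spread between cultures. Among all genes, Gas5 ranked 553 in mESCs and 140 in NIH3T3 cells. In bulk RNA a difference in RNA per cell and a difference in the share of cells that express a gene cannot be told apart.

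**Figure D1:**
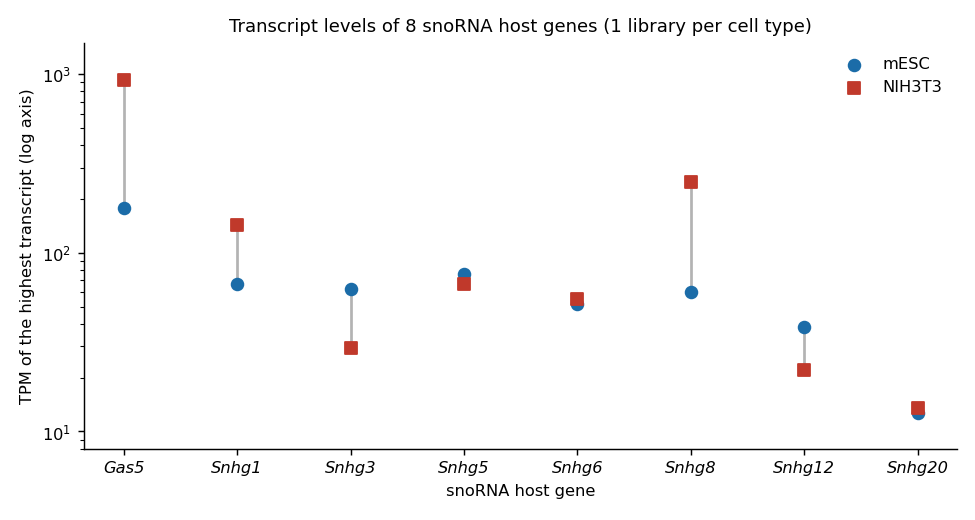
TPM of the highest transcript (vertical log axis) of each of the 8 snoRNA host genes (horizontal axis) in mESCs (circles) and NIH3T3 cells (squares), 1 library each, with a line joining both values. Gas5 goes from 178 to 932 and Snhg8 from 60.3 to 249. Snhg20 is drawn at 12.7 and 13.5, values of different transcripts, while its summed TPM was 36.2 in mESCs and 15.9 in NIH3T3 cells.

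Gas5, Snhg8 and Snhg1 were at least 2-fold higher in NIH3T3 cells, a size reached in that direction by 20.6% of the 14691 genes with a TPM of at least 1 in either library. Snhg3 alone was at least 2-fold higher in mESCs, where 24.9% of all genes passed. These were 3 of 8 and 1 of 8 members, and with so few genes neither count is read as a result about the members. Fold differences were taken on log2(TPM + 1), which understates those of low genes. The median difference of all these genes was −0.14 on this scale, so a member at 0 would lie 0.14 above the middle of the genes.

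Gas5, named for growth arrest, hosts a row of box C/D snoRNAs and has been studied as a long RNA that can bind the glucocorticoid receptor. Its log2 difference (NIH3T3 minus mESCs) was 2.38, and 2.52 relative to the median gene, a TPM ratio of 5.24. The rounded estimated counts over all its transcripts were 4271 in mESCs (95% exact Poisson interval, 4144 to 4401) and 15787 in NIH3T3 cells (15542 to 16035). Scaled to the library totals, the ratio was 3.38 (exact interval, 3.27 to 3.50). Gas5 was thus higher in NIH3T3 cells on each measure used here, but the size depended on whether the transcripts were summed. The 3 genes with the most similar pair of levels, by Euclidean distance on log2(TPM + 1) over both libraries, were Sparc (187 and 766 TPM, distance 0.29), Spp1 (252 and 689, distance 0.66) and Tuba1a (199 and 595, distance 0.67).

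Snhg8, a short gene that carries the box H/ACA snoRNA Snora24, had a log2 difference of 2.03, and 2.16 relative to the median gene. Its estimated counts were 349 (313 to 388) in mESCs and 1527 (1451 to 1606) in NIH3T3 cells, a scaled ratio of 4.0 (3.56 to 4.51). For this gene the ratio from TPM, 4.13, was nearly the same, and a single transcript, Snhg8-201, made up 94.9% of its summed TPM in mESCs and 95.1% in NIH3T3 cells. Snhg1, which carries a series of C/D snoRNAs between short exons, had a log2 difference of 1.08, and 1.22 relative to the median gene. Its estimated counts were 2895 (2790 to 3002) and 5996 (5845 to 6150), a scaled ratio of 1.90 (1.81 to 1.98), and its log2 difference was 0.95 when TPM was summed over transcripts. Snhg1 therefore passed the 2-fold size with the highest transcript and missed it narrowly with the sum.

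Snhg3, host of the H/ACA pair Snora73a and Snora73b, was lower in NIH3T3 cells by a log2 difference of −1.07. Relative to the median gene the difference was −0.94, under the 2-fold size. Its estimated counts were 478 (436 to 523) and 317 (283 to 354), a scaled ratio of 0.607 (0.525 to 0.701). Snhg12, which hosts H/ACA snoRNAs and Snord99, had a log2 difference of −0.77 with its highest transcript, but its summed counts, 1146 (1081 to 1214) and 1209 (1142 to 1279), gave a ratio of 0.965 (0.890 to 1.05). The lower value of Snhg12 in NIH3T3 cells was thus one of Snhg12-206, not of the gene as a whole.

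By their highest transcript, the other members lay closer together. Snhg5, host of the Snord50 pair, had a log2 difference of −0.19 and estimated counts of 1646 (1567 to 1727) and 1537 (1461 to 1616), a ratio of 0.855 (0.797 to 0.917). Snhg6, host of Snord87, had a log2 difference of 0.09 and estimated counts of 712 (661 to 766) and 1109 (1045 to 1176), a ratio of 1.43 (1.30 to 1.57). Snhg20, the scaRNA host, had a log2 difference of 0.08 with its highest transcript, while its estimated counts gave the opposite direction, 397 (359 to 438) and 253 (223 to 286), a ratio of 0.583 (0.496 to 0.684). Summed TPM of Snhg20 was 36.2 in mESCs and 15.9 in NIH3T3 cells, a log2 difference of −1.14, so that its direction turned with the way transcripts were combined.

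The transcripts behind these levels differed between the cell types. The 8 genes have 79 annotated transcripts, and the same one was the highest in both libraries for 5 genes. How often this holds over all genes was not counted. In Snhg20, Snhg20-201 had 12.7 TPM in mESCs and was listed at 0 in NIH3T3 cells, where Snhg20-202 had 13.5 TPM and 84.7% of the gene's summed TPM. In Snhg6 the highest transcript was Snhg6-203 in mESCs (51.7 TPM, and 39.9 in NIH3T3 cells) and Snhg6-205 in NIH3T3 cells (55.1 TPM, and 29.5 in mESCs). Snhg1-211 led in mESCs with 67.1 TPM and reached 115 TPM in NIH3T3 cells, where Snhg1-206, annotated as a retained intron, was higher at 143 TPM against 52.5 in mESCs. In Snhg3, Snhg3-203 led in both, but Snhg3-201 went from 18.9 TPM to a listed 0 and Snhg3-204 from a listed 0 to 16.5 TPM. In the library where each was above 0, estimated counts were 72.5 for Snhg20-201, 89.0 for Snhg3-201 and 82.8 for Snhg3-204. Gas5-210, with 11 exons, held 42.9% of the summed TPM of Gas5 in mESCs and 62.8% in NIH3T3 cells.

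Transcripts annotated as retained intron, which keep intron sequence, numbered 38 and belonged to 4 of the genes, Gas5, Snhg1, Snhg5 and Snhg8. In Gas5 they held 44.6% of summed TPM in mESCs and 31.6% in NIH3T3 cells, from 185 and 468 TPM. In Snhg1 they held 47.6% and 54.0%, from 111 and 244 TPM. Snhg5 had 19.5% and 31.1%, and Snhg8 5.15% and 4.87%. The share was thus lower in NIH3T3 cells for Gas5, higher for Snhg1 and Snhg5 and about level for Snhg8. These are shares that kallisto estimated from reads of shared exons, and by estimated counts, which weigh long transcripts more, they were 66% and 55.0% for Gas5, 64.1% and 68.3% for Snhg1, 23.5% and 33.9% for Snhg5 and 11.5% and 10.9% for Snhg8.

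**Figure D2:**
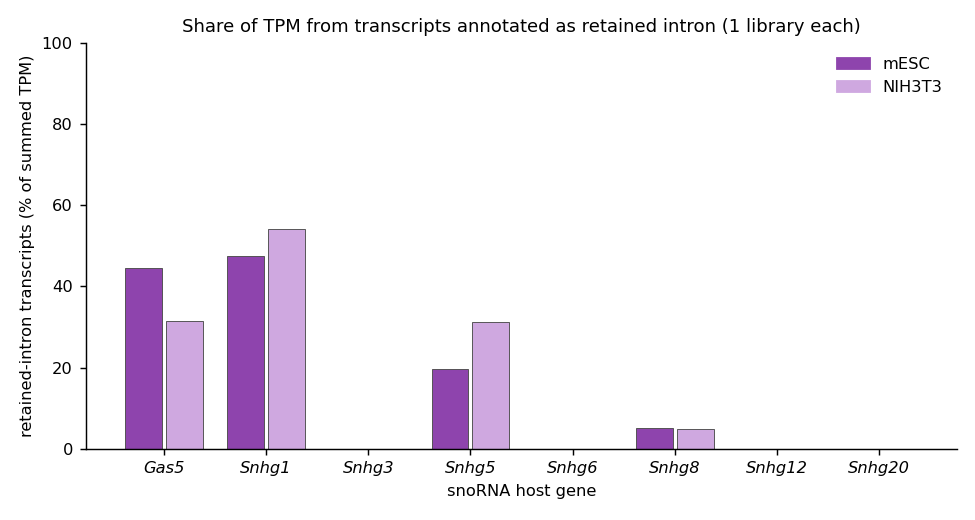
Share of each gene's summed TPM (vertical axis, percent) from transcripts annotated as retained intron, for each snoRNA host gene (horizontal axis), in mESCs (dark bars) and NIH3T3 cells (light bars), 1 library each. Gas5 and Snhg1 stand highest, and Snhg3, Snhg6, Snhg12 and Snhg20 have no such transcript.

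At their start, most members shared letters. RefSeq promoters (GRCm38.p6) were at hand for 7 members, all but Snhg6. TATA was looked for on the strand of the gene from 45 to 15 bases before the start, and a pyrimidine run as C followed by 4 or more C or T, beginning within 10 bases of the start. TATA was present in 5 of the 7, Gas5, Snhg1, Snhg5, Snhg8 and Snhg12, against 6.87% of all 32851 promoters in the table. The run was present in 5 of the 7, Gas5, Snhg3, Snhg5, Snhg8 and Snhg12, against 29% of all promoters. Both were present in 4 of the 7, against 2.02% of all. The windows of both patterns do not overlap. These shares are over promoters of genes at any level, and promoters of genes of like TPM were not compared. The search for TATA was not among the planned measures.

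The sequences run from 50 bases before the RefSeq start to the 50th base from it, 5′ to 3′, with TATA and the pyrimidine run in capitals. They are printed because ChIP-seq summits of NELFA and Ser5p fell on or beside these bases in most members.
Gas5 start, chr1:161035116-161035215, plus strand: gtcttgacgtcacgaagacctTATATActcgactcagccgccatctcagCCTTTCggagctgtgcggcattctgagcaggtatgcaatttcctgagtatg
Snhg1 start, chr19:8723437-8723536, plus strand: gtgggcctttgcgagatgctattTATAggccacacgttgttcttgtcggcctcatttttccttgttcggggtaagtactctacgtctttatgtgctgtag
Snhg3 start, chr4:132353637-132353736, minus strand: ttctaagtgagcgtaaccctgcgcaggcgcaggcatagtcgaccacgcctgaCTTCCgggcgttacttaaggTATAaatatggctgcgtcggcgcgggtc
Snhg5 start, chr9:88522848-88522947, minus strand: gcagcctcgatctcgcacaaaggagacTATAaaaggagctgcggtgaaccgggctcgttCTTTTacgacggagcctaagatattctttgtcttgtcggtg
Snhg8 start, chr3:123508287-123508386, minus strand: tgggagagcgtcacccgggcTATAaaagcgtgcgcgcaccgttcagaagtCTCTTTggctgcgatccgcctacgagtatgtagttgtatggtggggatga
Snhg12 start, chr4:132308628-132308727, plus strand: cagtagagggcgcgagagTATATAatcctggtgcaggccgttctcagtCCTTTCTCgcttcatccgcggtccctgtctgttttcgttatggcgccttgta
Snhg20 start, chr11:117076733-117076832, plus strand: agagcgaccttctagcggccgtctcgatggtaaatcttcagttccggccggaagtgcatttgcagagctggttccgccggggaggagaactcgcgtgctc

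In Gas5 the run had 6 bases and began 1 base before the RefSeq start, with TATA 29 bases before that start. Snhg12 had the longest run, 8 bases beginning 2 bases before the start, with TATA 32 bases before it. Snhg3 had TATA only 22 bases after the RefSeq start, which is 31 bases before the start of Snhg3-203, the transcript with the highest level in both libraries. Measured from the start of the highest transcript in mESCs, TATA lay 32 bases before Snhg12-206, 30 before Snhg5-201 and 15 before Snhg1-211. It lay 70 bases after the start of Gas5-210 and 38 bases after that of Snhg8-201, and so inside these annotated transcripts. In Snhg1 the longest run had 4 bases and missed the rule. Snhg20 had neither. These matches describe letters and say nothing of what binds there.

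Every member was occupied by Ctr9 in mESCs. A gene was given every peak that reached at least 1 bp into its body, the 1 kb before it or the 5 kb after it. Ctr9 met this rule at 8 of 8 members in mESCs, against 35.4% of 31598 protein-coding and long non-coding genes and 88.4% of the genes with at least the TPM of the lowest member (12.7 in mESCs). In NIH3T3 cells Ctr9 was found at 7 of 8, against 20.6% of all genes and 59.7% of those with at least 13.5 TPM, and the member without a peak was Snhg20. H3K27ac, a mark of active promoters and enhancers, was found at 8 of 8 in mESCs, against 35.7% and 87.2%, and at 8 of 8 in NIH3T3 cells, against 46.3% and 97.0%. For Ctr9 in mESCs and for H3K27ac in both lines, a peak is what nearly any gene at or above these TPM values had. Snhg20 alone sets both floors, and the other 7 members lie above them. With the floor at the second lowest member, Snhg12 (38.3 TPM in mESCs and 22.0 in NIH3T3 cells), an alternative chosen after seeing the data, Ctr9 was found at 7 of 7 in both lines, against 93.5% of 2551 genes in mESCs and 65.1% of 3917 in NIH3T3 cells.

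The shorter lists set the members further from other genes. RNAPII Ser5p, found early in transcription, had a peak at 8 of 8 members, against 10.5% of all genes and 32.2% of those with at least 12.7 TPM. NELFA had a peak at 7 of 8, against 8.34% and 26.3%, and RNAPII Ser2p, which builds up towards the end of genes, at 7 of 8, against 5.48% and 17.7%. The gene without a NELFA or Ser2p peak was again Snhg20. With the floor at Snhg12, each of the 3 was found at 7 of 7, against 43.5% of genes for Ser5p, 34.8% for NELFA and 27.5% for Ser2p. The lists hold 1980 peaks for NELFA, 1675 for Ser2p and 4490 for Ser5p, beside 44748 for Ctr9 in mESCs, so absence from a short list says only that no peak reached its threshold.

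The strength of the peaks varied between members more than their presence did. Strength is the fold enrichment over local background that the peak caller gave at the summit, and each gene takes its strongest peak. For Ctr9 in mESCs it was 36.6 at Gas5, 34.3 at Snhg3, 23.1 at Snhg12, 22.7 at Snhg1, 22.6 at Snhg8, 20.1 at Snhg5, 12.6 at Snhg20 and 10.9 at Snhg6. The median of 22.6 compares with 6.24 over the 5164 genes with a peak and at least 12.7 TPM, and all 8 members were above that median. With the floor at Snhg12 the median of the genes was 7.42 and that of the 7 members 22.7. Even the lowest, Snhg6, was above 82.1% of the 5164 genes with a peak and at least 12.7 TPM. In NIH3T3 cells the values were 27.7 at Gas5, 19.4 at Snhg5, 18.7 at Snhg1, 17.8 at Snhg8, 14.5 at Snhg3, 11.3 at Snhg12 and 7.47 at Snhg6, with a median of 17.8 against 5.48 over 3313 genes, or 5.65 with the floor at Snhg12.

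Ser5p was strongest at Gas5 (21.4), followed by Snhg3 (18.5), Snhg1 (17.3), Snhg12 (13.8), Snhg5 (13.5), Snhg6 (12.9), Snhg8 (8.65) and Snhg20 (7.51), with a median of 13.6 against 5.19 over 1884 genes. NELFA was 16.3 at Gas5, 12.2 at Snhg1, 10.7 at Snhg5, 10.2 at Snhg3, 8.26 at Snhg6, 6.70 at Snhg8 and 6.61 at Snhg12, with a median of 10.2 against 5.1 over 1539 genes. Ser2p was led by Snhg12 (14.9), followed by Snhg3 (12.4), Snhg1 (11.8), Gas5 (10.9), Snhg5 (10.6), Snhg8 (9.64) and Snhg6 (8.08), with a median of 10.9 against 5.46 over 1036 genes. In these 3 lists every member with a peak was above the median of the comparison genes. With the floor at Snhg12 the medians of the genes were 5.58 for Ser5p, 5.19 for NELFA and 5.57 for Ser2p, and all 7 members were above each of them.

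H3K27ac did not set the members apart in this way. In mESCs its strongest peak was 9.40 at Snhg5, 8.76 at Snhg6, 8.01 at Snhg12, 7.78 at Snhg8, 6.43 at Snhg3, 6.04 at Snhg1, 5.27 at Gas5 and 2.56 at Snhg20, with a median of 7.10 against 5.91 over 5095 genes. Gas5, the member with the highest transcript level and the strongest Ctr9, NELFA and Ser5p peaks, was thus next to last for H3K27ac in mESCs. The single H3K27ac peak of Snhg20 in mESCs lay 7272 bp from its start, beyond the gene, and none touched its body. In NIH3T3 cells the values were 33.8 at Snhg8, 31.1 at Gas5, 22.6 at Snhg6, 22.3 at Snhg20, 19.7 at Snhg12, 17.8 at Snhg3, 16.8 at Snhg1 and 13.0 at Snhg5, with a median of 21.0 against 18.6 over 5380 genes, and 5 of 8 members were above it.

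**Figure D3:**
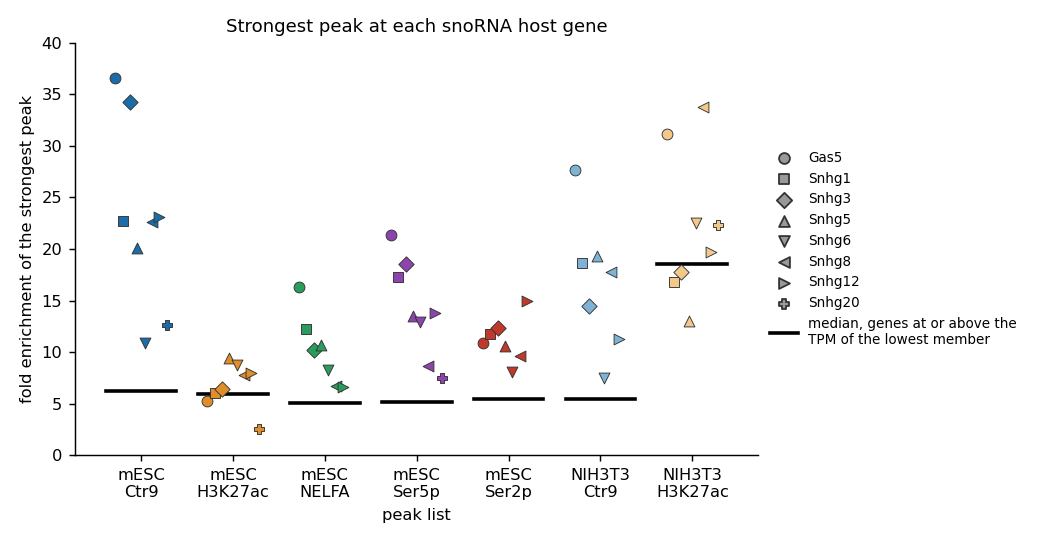
Fold enrichment over local background (vertical axis) of the strongest peak at each snoRNA host gene in each of 7 peak lists (horizontal axis), 1 symbol per gene and 1 library per list. Black lines are the median over genes with a peak and at least the TPM of the lowest member, and all symbols for Ctr9, NELFA, Ser5p and Ser2p lie above their line.

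Ctr9 strength and transcript level are set side by side for the members in both cell types. All 7 members with a Ctr9 peak in both lines had the higher fold enrichment in mESCs, as did 70.4% of 2516 genes with a peak in both and at least the TPM of the lowest member in both. Gas5 went from 36.6 in mESCs to 27.7 in NIH3T3 cells while its TPM went from 178 to 932, and Snhg8 from 22.6 to 17.8 while its TPM went from 60.3 to 249. Snhg3 went from 34.3 to 14.5 and Snhg12 from 23.1 to 11.3, the widest gaps in Ctr9, with log2 differences by the highest transcript that were the most negative of the 8. By summed TPM the most negative were Snhg20 at −1.14 and Snhg3 at −0.86, and Snhg12 was at −0.11. Snhg20 had a Ctr9 peak of 12.6 in mESCs and none in NIH3T3 cells, with a summed TPM of 36.2 and 15.9. For H3K27ac all 8 members had the higher value in NIH3T3 cells, but so did 99.0% of 3786 such genes, which leaves nothing particular to the members. Read depth is unknown for the ChIP-seq libraries, and fold enrichment depends on it, so these values are set side by side only.

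Ctr9 covered most of each member in a single broad peak. The strongest Ctr9 peak in mESCs was from 3298 to 8592 bp wide over the 8 genes, with a median of 4838 bp. The median over the list was 391 bp, and 97.2% of all Ctr9 peaks in mESCs were narrower than the narrowest of these. The list holds peaks of every strength, and widths at other genes of like length and TPM were not compared. In Gas5 the strongest peak began past the gene end, and a weaker one of 3574 bp covered most of the body. All Ctr9 peaks of a gene together covered between 83.1% and 100% of its body, with a median of 96.4%. Ser5p covered between 76.9% and 100%, with a median of 94.9%. NELFA covered a median of 15.5% and Ser2p of 27.6%. All 28 places that hold a small RNA were fully under Ctr9 peaks in mESCs, and 27 in NIH3T3 cells, all but that of Snhg20.

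**Figure D4:**
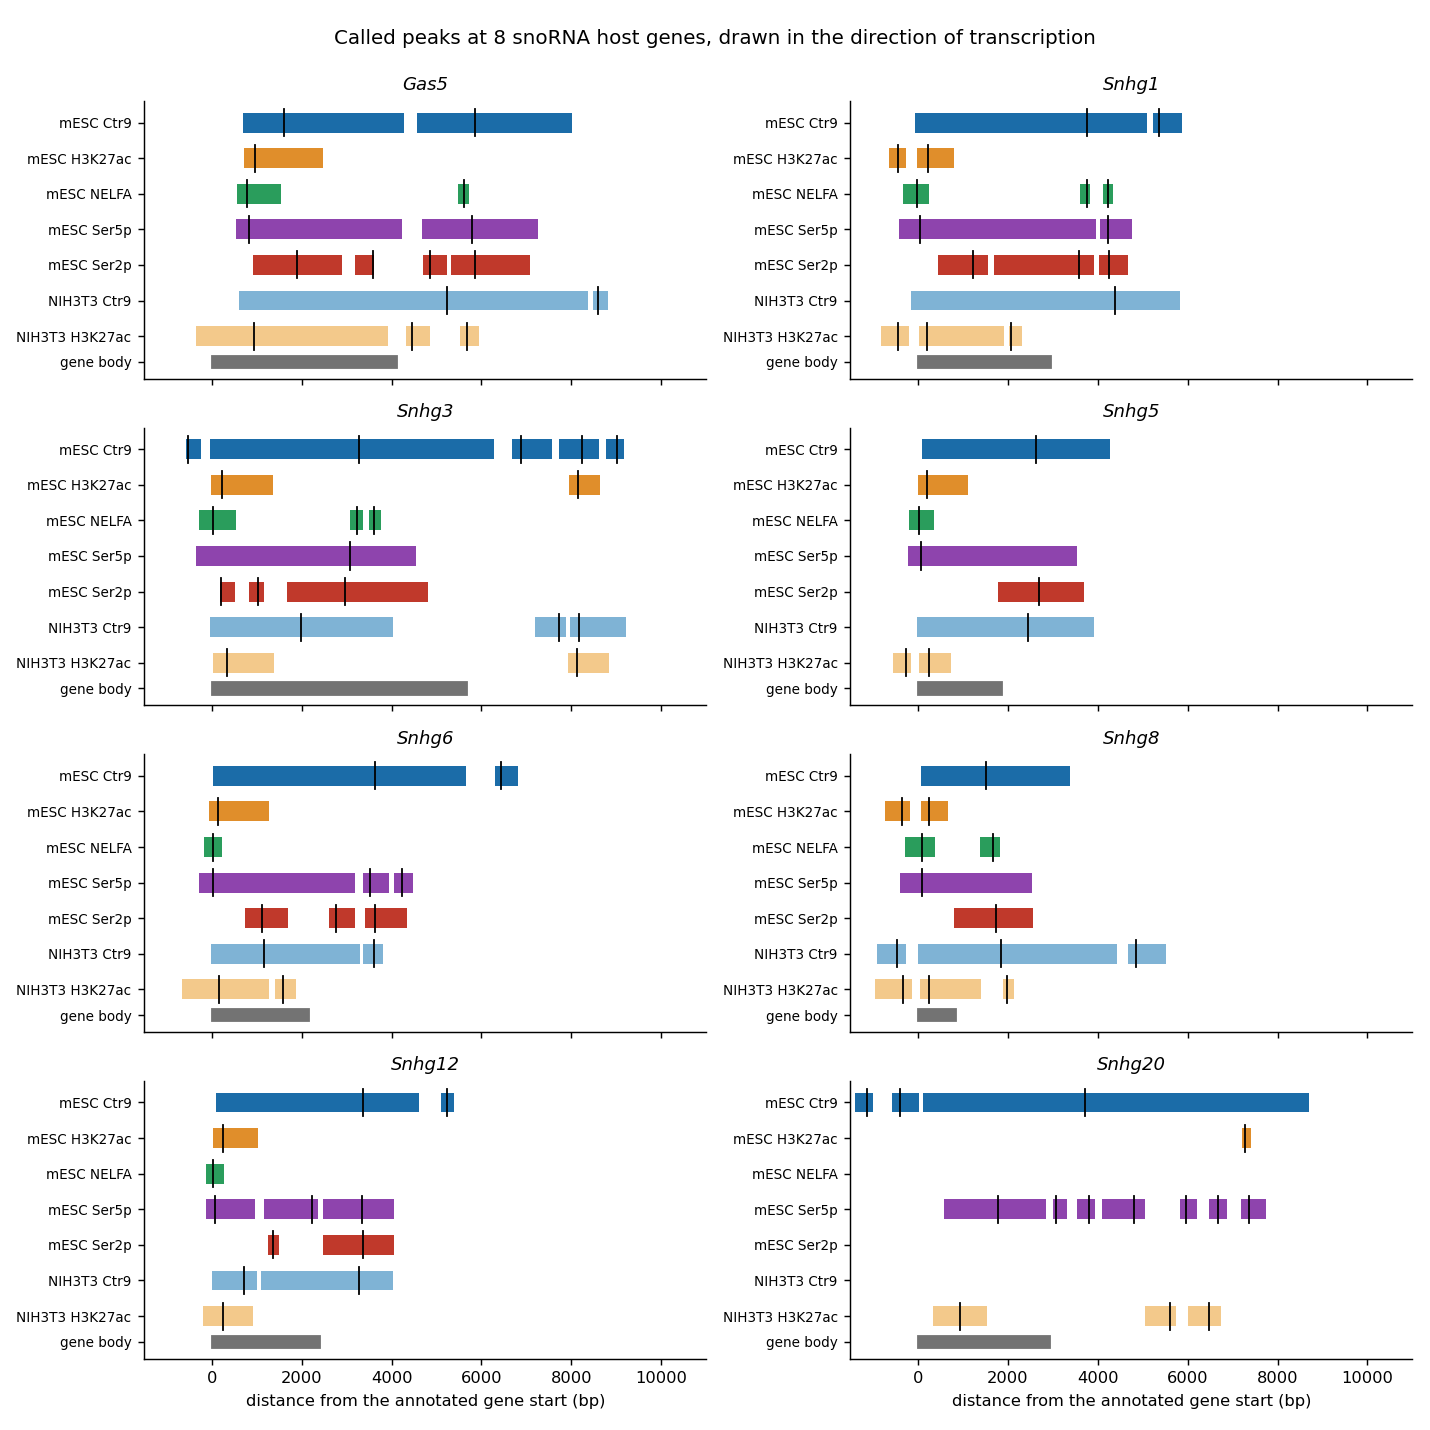
Peaks of the 7 lists (rows, coloured bars, with a black line at each summit) at each snoRNA host gene (panels), by distance from the annotated gene start in bp (horizontal axis, transcription to the right), with the gene body in grey. Ctr9 and Ser5p bars span the gene bodies and run past their ends, NELFA bars lie mainly at starts and Ser2p bars mainly towards and past ends.

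NELFA summits sat at the start of the members. The strongest NELFA summit lay 24 bp from the annotated start of Snhg5, 26 bp from that of Snhg3, 34 bp from that of Snhg6, 20 bp from that of Snhg12, 101 bp from that of Snhg8, and 20 bp before that of Snhg1. Gas5 was the exception at 777 bp, but its annotated start belongs to a minor transcript, and the summit was 132 bp from the start of Gas5-210. Within 300 bp of the gene start were 6 of 7, against 74.7% of 288 genes with a NELFA peak, at least 12.7 TPM and no longer than the longest member (5673 bp). All 7 were within 300 bp of the start of their highest transcript. A second, weaker NELFA peak had its summit past the annotated end in Gas5 (1484 bp past, fold enrichment 5.88), Snhg1 (803 and 1250 bp past, 4.73 and 5.26) and Snhg8 (809 bp past, 4.77), which makes 3 of 7 against 21.5% of those genes. In Snhg3 the further NELFA summits were 1487 and 1866 bp past the end of Snhg3-203.

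The strongest Ser5p summit was within 300 bp of the gene start in 4 of 8 members, against 43.1% of 394 comparable genes. These were Snhg6 (30 bp), Snhg1 (45 bp), Snhg5 (72 bp) and Snhg8 (101 bp), in which it lay 4, 65, 48 and 0 bp from the NELFA summit. In Gas5 the Ser5p summit was 50 bp from the NELFA summit. In Snhg3 and Snhg12 the strongest Ser5p signal lay towards the other end, 3061 and 3316 bp from NELFA, although Snhg12 also had a Ser5p peak of 10.9 with its summit 71 bp from the start. A Ser5p summit past the annotated end was found in 5 of 8, against 67.3% of those genes, and in Gas5 and Snhg1 it was nearly as strong as the first, 15.9 and 15.

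Ctr9 was strongest past the end of the gene. In mESCs the strongest Ctr9 summit lay past the annotated end in 7 of 8 members, against 74.9% of 738 genes with a Ctr9 peak, at least 12.7 TPM and no longer than the longest member, so that this position was common among short active genes. The distances past the end were 671 bp in Snhg8, 739 bp in Snhg5, 769 bp in Snhg20, 789 bp in Snhg1, 962 bp in Snhg12, 1477 bp in Snhg6 and 1735 bp in Gas5. In Snhg3 the summit lay inside the annotated gene, whose end is set by Snhg3-205 (22.2 TPM in mESCs, 19.8% of the gene's summed TPM), and 1531 bp past the end of Snhg3-203. In Gas5 a second Ctr9 peak inside the gene had a fold enrichment of 16.7, against 36.6 for the one past the end.

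Ser2p shared that position. Its strongest summit lay past the annotated end in 6 of the 7 members with a peak, against 71.5% of 295 such genes, and in Snhg3 it was 1224 bp past the end of Snhg3-203. The strongest Ctr9 and Ser2p summits in mESCs were at the same base in Gas5, 2 bp apart in Snhg6 and 3 bp apart in Snhg12. They were 85 bp apart in Snhg5, 219 bp in Snhg8, 307 bp in Snhg3 and 491 bp in Snhg1. The gaps were thus at most 491 bp in genes whose bodies are between 853 and 5673 bp long. Gaps in other genes with both peaks were not measured, so the closeness is not read as particular to the members.

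In NIH3T3 cells the Ctr9 summits lay nearer the start in some members. The strongest was past the annotated end in 4 of 7, against 34.4% of 439 such genes, namely 579 bp past in Snhg5, 986 bp in Snhg8, 1114 bp in Gas5 and 1415 bp in Snhg1. In these 4 genes the summits of the cell types were 160, 315, 621 and 626 bp apart. In Snhg3, Snhg6 and Snhg12 the NIH3T3 summit lay 1298, 2478 and 2654 bp nearer the start than that of mESCs, at 1985, 1158 and 709 bp from it. Snhg12 still had a second Ctr9 peak in NIH3T3 cells with a summit 873 bp past the end and a fold enrichment of 8.52, and Snhg6 one 1458 bp past the end with 4.82.

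H3K27ac summits lay at nearly the same base in both cell types in most members. The strongest was within 300 bp of the gene start in 5 of 8 members in mESCs, against 54.3% of 665 comparable genes, and in 4 of 8 in NIH3T3 cells, against 52.4% of 725. Summits of the cell types were 11 bp apart in Snhg12, 12 bp in Snhg6, 15 bp in Snhg1, 22 bp in Snhg8, 32 bp in Gas5 and 52 bp in Snhg5. In Snhg3 the strongest H3K27ac peak of NIH3T3 cells (17.8) lay 8115 bp from the start, past the gene and inside Rcc1, and the one near the start (10.7) had its summit at 346 bp, against 235 bp in mESCs. In Snhg20 an H3K27ac peak 939 bp from the gene start, or 157 bp from that of Snhg20-201, was found in NIH3T3 cells and none there in mESCs.

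**Figure D5:**
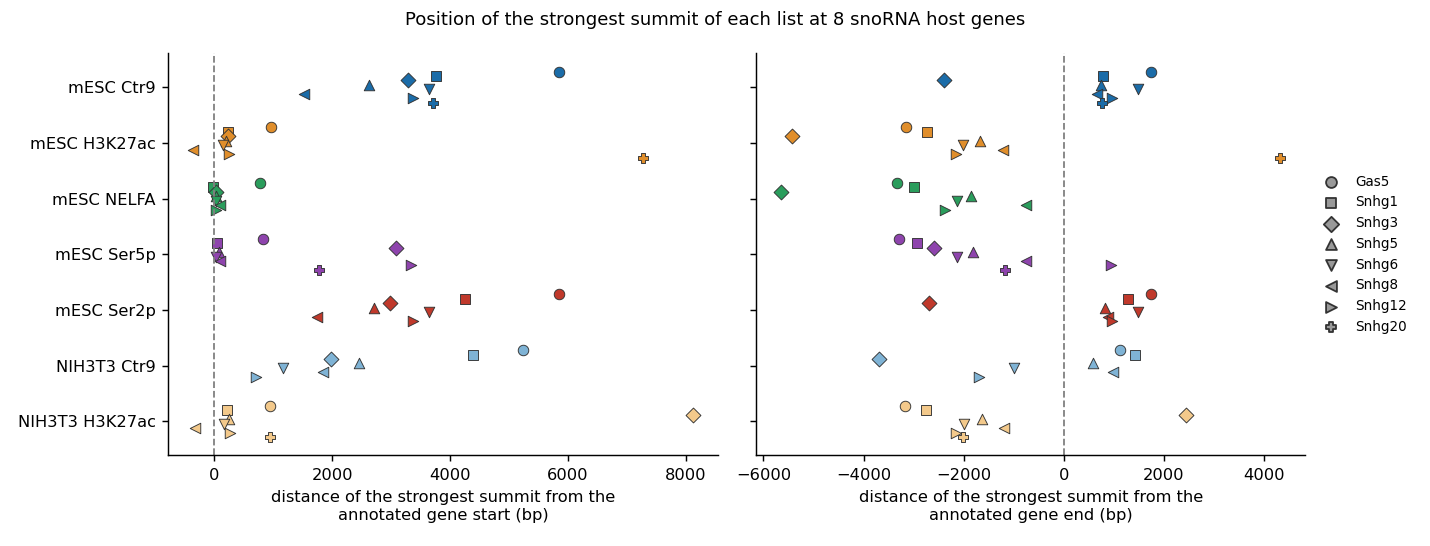
Distance in bp (horizontal axes) of the strongest summit of each list (rows) from the annotated start (left) and the annotated end (right) of each snoRNA host gene, 1 symbol per gene. NELFA summits gather at the start, except in Gas5 at 777 bp, and the Ctr9 and Ser2p summits of mESCs lie past the end in all genes with a peak but Snhg3.

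Several members share ground with other genes, and peaks there cannot be given to one of them. Rcc1, a chromatin-bound exchange factor of Ran, starts 81 bp inside Snhg3 on the same strand and had 23.8 TPM in mESCs and 16.1 in NIH3T3 cells. It overlaps 5592 bp of Snhg3, so the strongest Ctr9, Ser5p and Ser2p summits at Snhg3 lie within it. Slc3a2, a subunit of amino acid transporters, starts 106 bp from Snhg1 in the other direction and had 130 and 81.0 TPM, higher in mESCs where Snhg1 was lower. Zbtb37 overlaps 428 bp of Gas5 at its annotated start from the other strand with 1.62 and 2.58 TPM. Trnau1ap ends 739 bp after Snhg12 with 18.0 and 15.2 TPM, so the Ctr9 and Ser2p summits past Snhg12 lie within it. Mcmdc2 overlaps the end of Snhg6 with 1.07 and 0.262 TPM, so the Ctr9 and Ser2p summits past Snhg6 lie within it, and Prss12, listed at 0 in both libraries, ends 955 bp after Snhg8. The nearest other starts to Snhg5 and Snhg12 were those of Zfp949 (3.87 and 6.18 TPM) and Rab42 (0.670 and 0.28 TPM), each over 5 kb away. Gm43590, the nearest other start to Snhg8 at 36434 bp, had 7.92 and 11.9 TPM, and Gm37634, Gm17300, Gm11731 and E330040D14Rik had at most 0.135. The RNA libraries were strand-specific per the labels, but whether the quantification used the strand is not given in the sources used here.

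Related genes chosen by name were less uniform, but they were taken at any level, with no floor on TPM. Of 9 other Snhg genes, 8 were found and 6 reached 1 TPM in either library. Snhg18 was at least 2-fold higher in NIH3T3 cells (0.619 and 16.7 TPM, log2 difference 3.45), followed in that direction by Snhg10 (1.70 and 3.64, 0.78), and Snhg14 (24.3 and 5.28, −2.01) and Snhg11 (3.10 and 0.458, −1.49) were at least 2-fold higher in mESCs. Ctr9 was present at 6 of the 8 in mESCs and at 6 in NIH3T3 cells, NELFA at 3, Ser5p at 4 and Ser2p at 2. Their median log2 difference was 0.43 over the 6 expressed, against 0.09 for the 8 hosts described above.

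Genes of the proteins that bind the snoRNAs differed little between the libraries. Of the 8 snoRNP core protein genes, Dkc1, the pseudouridine synthase of H/ACA particles, was at least 2-fold higher in mESCs (170 and 80.5 TPM, log2 difference −1.07), and none was in NIH3T3 cells. Nop58, a core protein of C/D particles, was next (372 and 233 TPM, −0.67), and the smallest differences were those of Gar1 (−0.12) and Fbl, the methyltransferase of C/D particles (−0.14). All 8 were lower in NIH3T3 cells, with a median of −0.31. The median of all genes with at least 1 TPM in either library was −0.14, so Gar1 lay above it and Fbl close to it. All 8 core protein genes had a Ctr9 peak in mESCs, NELFA had a peak at 2 of them, and Ser5p and Ser2p at 5 each. Among all genes with at least 38.3 TPM in mESCs, the shares were 93.5%, 34.8%, 43.5% and 27.5%. Of 10 nonsense-mediated decay genes none reached 2-fold. Upf1, the helicase of the pathway, came nearest (41.1 and 20.3 TPM, −0.98), followed by Smg8 (−0.69), while Smg9 (0.15) and Upf3a (0.14) were the only ones higher in NIH3T3 cells. Ctr9 was found at all 10 in mESCs, NELFA at 5, Ser5p at 6 and Ser2p at 2. The shares were 88.4%, 26.3%, 32.2% and 17.7% of genes with at least 12.7 TPM, a level that not all 10 reached.

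Markers fitted the labels of the RNA libraries. The pluripotency genes Pou5f1, Sox2, Nanog, Esrrb and Zfp42 had between 211 and 1402 TPM in mESCs and at most 0.511 in NIH3T3 cells. The fibroblast genes Col1a1, Col1a2, Col5a1, Thy1 and Vim had between 94.5 and 1829 TPM in NIH3T3 cells and between 0.132 and 162 in mESCs. The RNA libraries held 26400407 (mESCs) and 28849497 (NIH3T3) estimated counts.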

How the data were processed

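Per the labels and the methods, reads of each ChIP-seq library were aligned to mm10 (bowtie2 2.3.5.1), those in blacklisted regions dropped, and peaks called for that library alone by macs2 2.2.6 (q-value threshold 0.01). In the deposited lists, fold enrichment is a ratio to local background at the summit, −log10 p and −log10 q belong to the summit, and the score is 10 times −log10 q as a whole number. RNA reads were quantified by the authors against GENCODE M19 (kallisto 0.46.1), and the deposited tables give TPM and estimated counts, which need not be whole, for 137767 transcripts. Of 12 samples, 9 have a file, and the 3 inputs were not used.

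Genes took the TPM of their highest transcript, as in the study, and log2(TPM + 1) differences. Estimated counts were summed and rounded for exact Poisson and Clopper-Pearson intervals (95%). Coordinates came from GENCODE M21 and promoters from RefSeq. Peak regions were the gene body, 1 kb upstream and 5 kb downstream. Python 3.11.15, pandas 2.3.3, NumPy 2.4.6, SciPy 1.17.1 and Matplotlib 3.10.9 were used, and the code was tested on simulated data (7 of 7 checks passed). The members, gene lists and rules were chosen with earlier results of these data known. Named were all members, overlapping or nearest genes, genes of 3 lists with the largest differences, the 3 genes nearest Gas5 in level, and cell markers. Gar1, Fbl and Snhg15 were named after their values were seen. A neighbouring gene that this rule covers is not reported here.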

Additional observations from a re-analysis of the deposited data

How the results depend on the processing

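The count of members at least 2-fold higher in NIH3T3 cells was 3 in the main setting and 2 or 3 under each alternative. The 1 member higher in mESCs, Snhg3, missed the size with estimated counts scaled to library size and when centred on the median of all genes, leaving a count of 0 under both. With summed TPM it missed it too, at −0.86, and Snhg20, at −1.14, was the 1 member counted. Without a filter on low TPM, the share of all genes at least 2-fold higher was 5.56% for NIH3T3 cells and 6.71% for mESCs. The log2 difference ranged over settings from 1.75 to 2.52 for Gas5, from 1.92 to 2.16 for Snhg8, from 0.92 to 1.22 for Snhg1, from −1.10 to −0.67 for Snhg3, and from −0.80 to −0.05 for Snhg12. That of Snhg20 turned from 0.08 to −1.14 with summed TPM and −0.72 with scaled estimated counts. Counts of members with a peak stayed within 1 of the main count with a −log10 q of at least 5, a summit inside the region, narrower regions, or equal numbers of Ctr9 peaks. Counting from the end of the highest transcript, an alternative chosen after seeing the data, put the strongest Ctr9 summit past the end in 8 of 8 members in mESCs and 5 of 7 in NIH3T3 cells. No paired analysis was possible because each group compared has 1 library. Read depth is unknown for the ChIP-seq libraries, which limits every comparison of peaks between lists.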
